A study of Mus musculus with 24 samples.

Results

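The circadian clock genes described here are Clock, Npas2, Per1, Per2, Per3, Cry1, Cry2, Nr1d1, Nr1d2 and Dbp, measured in mouse liver by every probe set that the platform annotation assigns to 1 of these genes alone. They are 10 of 18193 genes and 23 of the 45101 probe sets on the array, and the rule that defines them uses no measured value, although the list was drawn up with earlier results of these data known. Liver RNA was hybridised to Affymetrix whole genome arrays, in 3 groups of 8 arrays with 1 mouse each: siKeap1-1 and siKeap1-2, which carry small interfering RNAs of different sequence against Keap1, and siControl, a scrambled siRNA with no target. All were male C57BL6/J mice, 8 weeks old when a Western diet and drinking water with 6% sucrose were started, kept under a 12 h light-dark cycle and given 1 mg siRNA per kg body weight every week for 7 weeks by the tail vein. The siRNA was packed in lipid nanoparticles that deliver it mainly to hepatocytes, and unlike a gene deletion it lowers Keap1 only in part. According to the study's methods each group held equal numbers of fed and fasted mice, but the labels give neither the feeding state of an array nor the hour at which liver was taken, so neither could enter a test.

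The liver clock is a transcriptional feedback loop. CLOCK, or its relative NPAS2, pairs with BMAL1 (gene Arntl) and switches on genes that carry E-box sequences, among them the Per and Cry genes, whose proteins return to the nucleus and repress that pair. An interlocked loop runs through the nuclear receptors REV-ERBα (Nr1d1) and REV-ERBβ (Nr1d2), which repress Arntl, and an output arm runs through DBP, an activator that binds D-box sequences in rhythmic liver genes. In liver the phase of this loop follows both light and meal times, so the level of a clock gene in a single sample depends on the hour of sampling.

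RefSeq promoter windows on GRCm38.p6, each reaching from 250 bases before to 50 bases after a transcription start, were found for 9 of the 10 genes, 12 windows in all; Per2 had no entry. Both strands were searched for the E-box CACGTG, its variant CACGTT, the D-box in the forms TTATGTAA and TTACGTAA, the ROR element, AANT directly followed by AGGTCA, and the antioxidant response element core TGACNNNGC, to which NRF2, the factor that KEAP1 holds down, binds. The windows of Per3 and Cry2, genes that were lower with an siRNA against Keap1, and of Cry1, which was not called, are shown from 5′ to 3′ on the minus strand of chromosomes 4, 2 and 10, with every match in capitals.
Per3 (chr4:151044616-151044915): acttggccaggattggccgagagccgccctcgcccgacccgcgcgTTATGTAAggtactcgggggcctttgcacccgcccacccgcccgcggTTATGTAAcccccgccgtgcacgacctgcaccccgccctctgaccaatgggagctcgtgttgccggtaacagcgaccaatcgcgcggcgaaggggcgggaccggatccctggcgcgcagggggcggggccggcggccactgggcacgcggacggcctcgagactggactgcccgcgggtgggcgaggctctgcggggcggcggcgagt
Cry2 (chr2:92434020-92434319): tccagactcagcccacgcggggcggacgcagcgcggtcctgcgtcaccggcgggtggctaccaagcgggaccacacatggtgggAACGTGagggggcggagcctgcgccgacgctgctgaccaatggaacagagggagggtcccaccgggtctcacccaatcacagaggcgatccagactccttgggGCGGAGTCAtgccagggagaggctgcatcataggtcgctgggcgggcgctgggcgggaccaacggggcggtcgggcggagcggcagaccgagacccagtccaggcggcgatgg
Cry1 (chr10:85185005-85185304): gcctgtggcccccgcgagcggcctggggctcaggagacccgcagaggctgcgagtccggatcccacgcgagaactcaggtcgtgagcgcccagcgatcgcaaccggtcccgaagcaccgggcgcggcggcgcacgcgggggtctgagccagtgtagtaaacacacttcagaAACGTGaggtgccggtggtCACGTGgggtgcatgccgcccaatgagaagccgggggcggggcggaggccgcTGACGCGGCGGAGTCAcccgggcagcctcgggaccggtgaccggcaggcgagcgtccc

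In the Per3 window the capitals mark 2 copies of the D-box form TTATGTAA, which start 205 and 158 bases before the transcription start, and 0.938% of 32851 windows of the same length hold this form. Per3 was the only one of the 9 genes with a D-box of either form in its window. The Cry2 window holds the E-box variant, read on the opposite strand, 166 bases before the start and an antioxidant response element core, also on the opposite strand, 63 bases before it. The Cry1 window holds an E-box 60 bases and its variant 79 bases before the start, followed by 2 overlapping copies of the antioxidant response element core on opposite strands. Across the 9 genes the E-box was found in 2 (Cry1 and Per1), its variant in 3 (Cry1, Cry2 and Nr1d1) and the antioxidant response element core in 4 (Cry1, Cry2, Per1 and Nr1d2). These letters are held by 7.15%, 4.68% and 12.4% of all windows. No window of the 9 genes held the ROR element, which 0.219% of all windows hold, or the D-box form TTACGTAA, which 0.119% hold. These are matches of letters in short windows and not measured binding sites.

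Values are log2 signals, so a difference of 1 is a doubling, and they are compared only within a probe set. A probe set was called at an adjusted p under 0.05 with limma, fitted on all 45037 probe sets that are not controls. Keap1 averaged 7.50 ± 0.22 with siKeap1-1 and 8.26 ± 0.21 with siKeap1-2, against 9.63 ± 0.27 with siControl (SD, n = 8 each), and Nqo1, a classical NRF2 target that encodes a quinone reductase, averaged 11.24 ± 0.16 and 10.93 ± 0.21 with the Keap1 siRNAs, against 9.02 ± 0.24. The mean of 5 hepatocyte markers lay between 14.58 and 14.69 on all arrays. Of 5 Kupffer cell markers Timd4 was called lower with both siRNAs and Vsig4 with siKeap1-1, while Adgre1 read -0.55 and -0.44, Clec4f -0.13 and -0.02 and Cd5l 0.18 and 0.32, not called. An unadjusted limma p under 0.05 was found for 3 of the 5 with each siRNA, beside 24.5% and 21.9% of all genes. With siKeap1-2 these included Cd5l, which was higher. Of 4 measured bile duct markers Sox9 was called higher with both, while Krt19, Krt7 and Epcam read -0.01, -0.21 and 0.22 with siKeap1-1 and -0.36, -0.33 and -0.38 with siKeap1-2, not called. No marker of endothelial cells, stellate cells or lymphocytes, 5 each, was called with limma (1, 1 and 0 with an unadjusted p under 0.05 with siKeap1-1, and 0, 1 and 0 with siKeap1-2). The part of other cell types in the clock differences was not tested, and in whole liver, fewer cells of a type and less RNA per cell cannot be told apart. A quality control on the array, a probe set for 18S rRNA, was also higher with both Keap1 siRNAs, by 1.23 (two-sided exact permutation p = 0.00435) and 1.18 (p = 0.00155). In siKeap1-1 replicates 1 to 3 the 18S signal ranged over 10.17 to 10.44, below the 11.17 to 11.43 of replicates 4 to 8. All siKeap1-2 arrays read 10.45 to 11.12. In siControl the order was turned: replicates 1 to 3 read 10.34 to 10.77 and replicates 4 to 8 only 8.86 to 9.54. The labels attach no batch to these numbers.

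The clock genes that were called by their brightest probe set were Per2 and Per3 with both Keap1 siRNAs and Cry2 with siKeap1-1, which encode repressors of the loop; the repressor genes Per1 and Cry1 were not called. With siKeap1-1, 5 of the 23 clock probe sets were called, 1 higher and 4 lower, where 8.99% of all probe sets were called (4.51% higher and 4.48% lower). With siKeap1-2, 3 were called, 1 higher and 2 lower, where 6.1% of all probe sets were called (3.15% higher and 2.96% lower). Taking for each gene its brightest probe set, siKeap1-1 lowered Per2, Per3 and Cry2, 3 of 10 genes, where 4.67% of all genes were called lower, and siKeap1-2 lowered Per2 and Per3, 2 of 10 genes, where 3.75% were. No clock gene was called higher by its brightest probe set. These probe sets had mean signals from 6.38 to 13.24, while 4.67% and 3.75% are shares of all genes, dim ones included. In a fit of probe sets with a mean signal over 6 only, 19.9% (siKeap1-1) and 14.4% (siKeap1-2) were called in either direction. The share called lower among genes of like signal was not taken. Over these 10 probe sets the median log2 difference was -0.20 with siKeap1-1 and -0.20 with siKeap1-2, beside 0.01 and -0.01 over all genes.

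**Figure D1:**
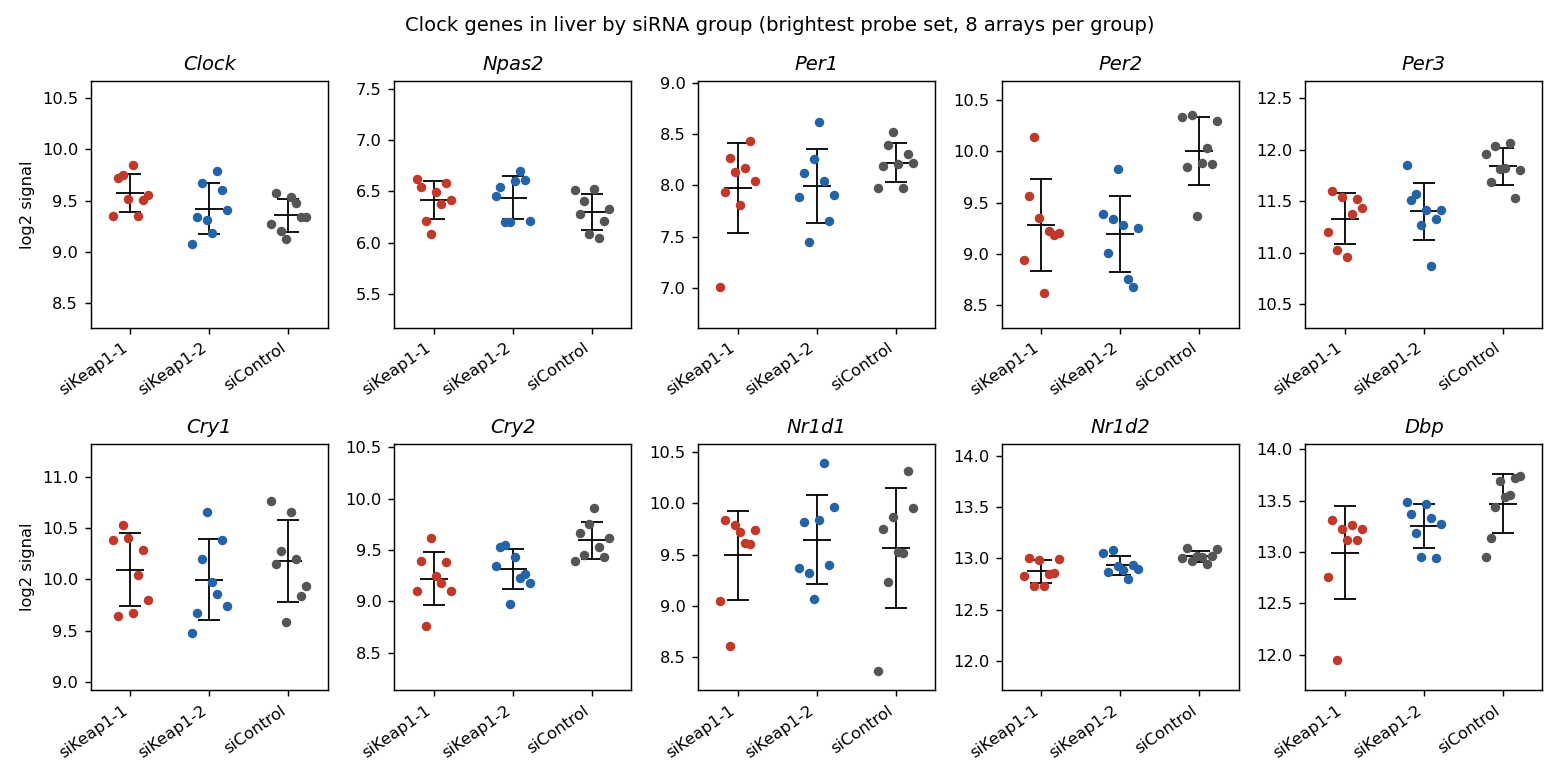
Log2 signal of the brightest probe set of each clock gene, 1 point per array in the order of the replicate numbers, with siKeap1-1, siKeap1-2 and siControl from left to right; bars give the mean ± SD (n = 8) and every panel spans the same log2 range. Per2 and Per3 sit lower in both Keap1 siRNA groups than with siControl, while the groups of Nr1d1 and Cry1 cover each other.

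Per2 encodes a PERIOD protein, a repressor of the loop whose liver level also follows glucocorticoids and feeding. On its brightest probe set, 1417602_at, the siKeap1-1 arrays read 8.94, 9.57, 10.14, 9.35, 8.62, 9.22, 9.19 and 9.21 and the siKeap1-2 arrays 9.39, 9.01, 9.34, 9.83, 9.28, 8.76, 8.68 and 9.25, against 10.33, 9.85, 10.35, 9.37, 9.89, 10.03, 9.88 and 10.30 in the siControl arrays. In each Keap1 siRNA group 6 of 8 arrays lay below every siControl array, and the groups overlapped through siKeap1-1 replicates 2 and 3, siKeap1-2 replicates 1 and 4 and the low siControl replicate 4. What share of all probe sets has such a count was not taken. The log2 difference was -0.72 with siKeap1-1 (SE 0.18, adjusted p = 0.0123) and -0.81 with siKeap1-2 (SE 0.18, adjusted p = 0.00799), which is 0.607 and 0.571 of the siControl level. The dimmer probe sets 1417603_at and 1457350_at, with mean signals of 5.78 and 5.72, did not show it: their differences lay between -0.15 and 0.15 and neither was called. Averaging the 3 probe sets of Per2 gave -0.28 (adjusted p = 0.111) and -0.20 (adjusted p = 0.292).

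Per3 encodes a PERIOD protein that is not needed for the rhythm itself in mice. On its brightest probe set, 1421087_at, the signal ran from 10.96 through a median of 11.41 to 11.60 with siKeap1-1 and from 10.87 through 11.41 to 11.85 with siKeap1-2, against 11.53 through 11.82 to 12.07 with siControl. Again 6 of 8 arrays of each Keap1 siRNA group lay below every siControl array. The share of all probe sets with such a count was not taken. Per3 fell by 0.51 on the log2 scale with siKeap1-1 (SE 0.12, adjusted p = 0.0059) and by 0.44 with siKeap1-2 (SE 0.12, adjusted p = 0.0231). Its probe set 1441445_at also fell with siKeap1-1, by 0.64 (adjusted p = 0.049), a call that was lost in 18 of the 24 fits that left out 1 array, and read -0.36 with siKeap1-2 (adjusted p = 0.33). Of the other 4, 1442243_at read -0.28 and 0.21 and the 3 dimmest between -0.12 and 0.11, none of them called. The mean over all Per3 probe sets differed by -0.26 (adjusted p = 0.0922) and -0.11 (adjusted p = 0.588).

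Cry2 encodes a cryptochrome, the partner of the PERIOD proteins in repression, and has 1 probe set. Its signal ran from 8.76 through a median of 9.21 to 9.62 with siKeap1-1 and from 8.97 through 9.30 to 9.55 with siKeap1-2, against 9.39 through 9.58 to 9.91 with siControl. With siKeap1-1, 7 of 8 arrays lay below every siControl array, and replicate 4 lay among the siControl arrays. The margin of replicate 2 was lost in rounding, as it and the lowest siControl array both read 9.39. With siKeap1-2, 5 of 8 arrays lay below every siControl array. The share of all probe sets with such counts was not taken. The log2 difference was -0.37 with siKeap1-1 (SE 0.10, adjusted p = 0.0234), with an adjusted p of 0.0508 without siControl replicate 5, and -0.28 with siKeap1-2 (SE 0.10, adjusted p = 0.107). The difference between the 2 siRNAs, -0.09, was within its error (95% interval -0.30 to 0.12).

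Cry1, the other cryptochrome, and Per1, the PERIOD gene known for its rapid response to hormones and cAMP, were not called. Cry1 ran from 9.64 through 10.16 to 10.53 with siKeap1-1 and from 9.48 through 9.91 to 10.66 with siKeap1-2, against 9.58 through 10.18 to 10.76 with siControl, so that the groups covered almost the same range. Its differences were -0.08 (95% interval -0.45 to 0.29) and -0.18 (-0.55 to 0.19), intervals that reach past the size seen for Cry2. Per1 read 7.01 in siKeap1-1 replicate 1 and 7.81 to 8.43 in the other siKeap1-1 arrays, 7.45 to 8.62 with siKeap1-2, and 7.97 to 8.52 with siControl. Per1 differed by -0.25 (95% interval -0.58 to 0.09) and -0.23 (-0.56 to 0.11), and without siKeap1-1 replicate 1 the first value was -0.11.

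**Figure D2:**
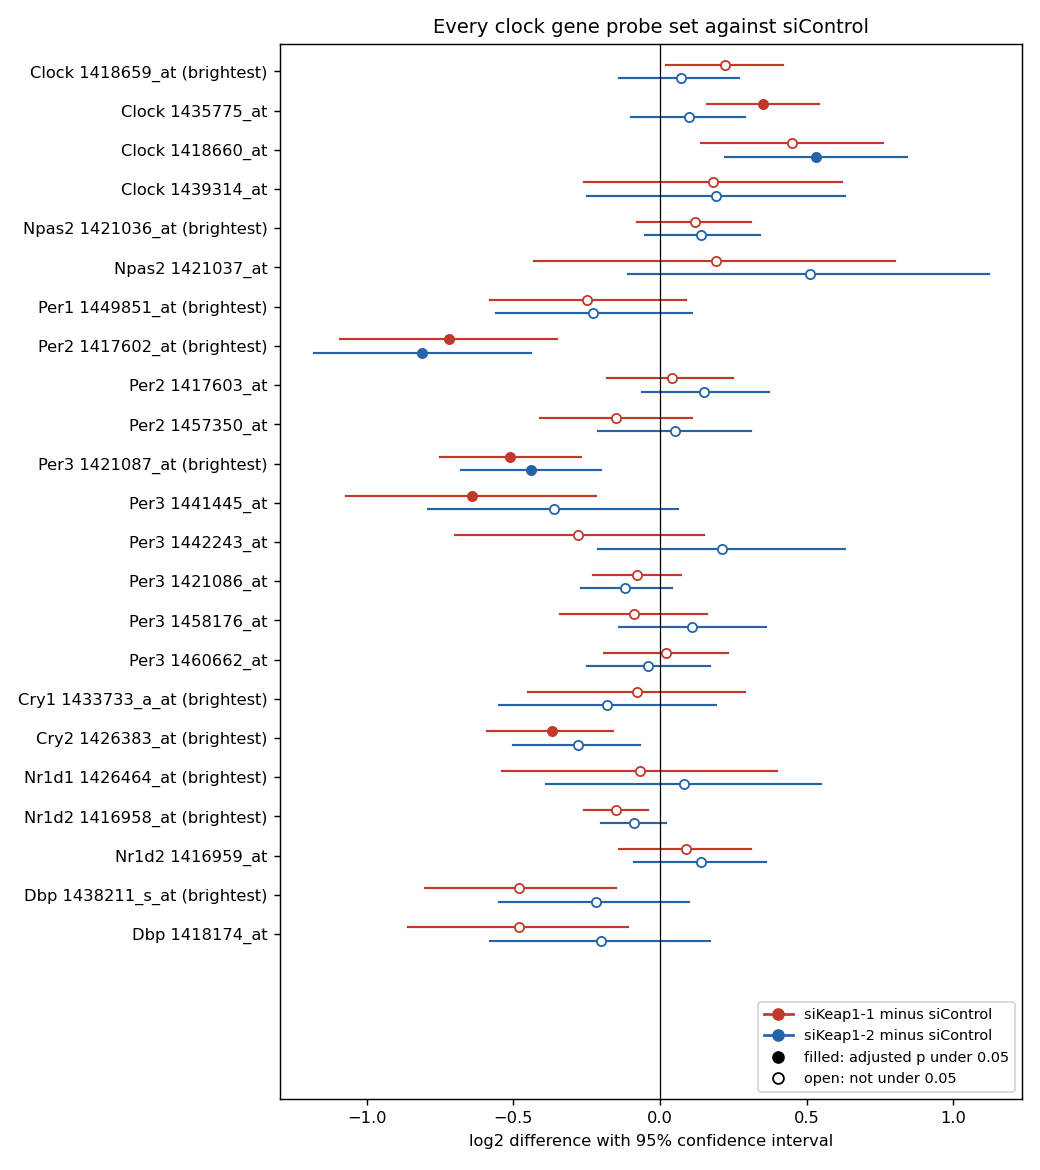
Log2 difference from siControl for all 23 clock probe sets, siKeap1-1 above siKeap1-2 in each row, with 95% confidence intervals from limma; filled points have an adjusted p under 0.05. Filled points to the left are Per2, Per3 and Cry2, and the filled points to the right belong to different Clock probe sets with each siRNA.

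Clock and Npas2 encode the activators of the loop. The brightest Clock probe set, 1418659_at, ran from 9.35 through 9.54 to 9.85 with siKeap1-1 and from 9.08 through 9.37 to 9.79 with siKeap1-2, against 9.13 through 9.34 to 9.57 with siControl, and its differences of 0.22 (adjusted p = 0.174) and 0.07 (adjusted p = 0.764) were not called. On 1435775_at all siKeap1-1 arrays, from 8.89 to 9.25, lay above all siControl arrays, from 8.48 to 8.84, a separation that 0.844% of all probe sets showed in that direction. The rise there was 0.35 with siKeap1-1 (SE 0.09, adjusted p = 0.0185), against 0.10 with siKeap1-2 (adjusted p = 0.618). The difference between the siRNAs on this probe set, 0.25 (95% interval 0.06 to 0.44), did not pass the adjustment (adjusted p = 0.366).

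Another Clock probe set, 1418660_at, gave a different picture. It ran from 7.51 through 8.19 to 8.40 with siKeap1-1 and from 7.74 through 8.20 to 8.39 with siKeap1-2, against 7.25 through 7.48 to 8.23 with siControl, and its difference was 0.45 with siKeap1-1 (adjusted p = 0.0578) and 0.53 with siKeap1-2 (adjusted p = 0.0328), a call that was lost in 10 of the 24 fits that left out 1 array. The siControl arrays fell into the classes that the 18S probe set shows: replicates 1 to 3 read between 7.64 and 8.23 and replicates 4 to 8 between 7.25 and 7.52. The siKeap1-1 arrays, which 18S also parts, did not: replicates 1 to 3 read 7.51 to 8.33 and replicates 4 to 8 read 7.75 to 8.40. With 18S signal as a covariate the differences were 0.02 and 0.12. The fourth Clock probe set, 1439314_at, was dim and not called. For Npas2 the probe set 1421036_at ran from 6.09 through 6.45 to 6.62 with siKeap1-1 and from 6.20 through 6.50 to 6.70 with siKeap1-2, against 6.05 through 6.30 to 6.52 with siControl, and its differences of 0.12 and 0.14 were not called. The other Npas2 probe set, 1421037_at, spread from 5.17 to 7.68 over the siKeap1-1 arrays, wider than the group difference of 0.19.

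Among the receptors of the interlocked loop, Nr1d1 varied most between mice and did not differ between groups beyond that spread. It ran from 8.61 through 9.66 to 9.84 with siKeap1-1 and from 9.07 through 9.61 to 10.39 with siKeap1-2, against 8.37 through 9.64 to 10.31 with siControl, with differences of -0.07 (95% interval -0.54 to 0.40) and 0.08 (-0.39 to 0.55). Nr1d2 was the steadiest member. On 1416958_at it ran from 12.73 through 12.86 to 13.00 with siKeap1-1 and from 12.80 through 12.91 to 13.08 with siKeap1-2, against 12.94 through 13.01 to 13.10 with siControl, and the small differences of -0.15 (adjusted p = 0.0875) and -0.09 (adjusted p = 0.366) were not called. Here too, 5 of 8 siKeap1-1 and 6 of 8 siKeap1-2 arrays lay below every siControl array, counts whose share among all probe sets was not taken.

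Dbp, the output activator, was measured by 2 probe sets that moved together. On 1438211_s_at the siKeap1-1 arrays read 12.76, 13.31, 11.95, 13.22, 13.12, 13.26, 13.12 and 13.22 and the siKeap1-2 arrays 13.49, 13.37, 13.19, 12.95, 13.47, 13.33, 12.94 and 13.27, against 12.95, 13.14, 13.44, 13.69, 13.54, 13.56, 13.72 and 13.74 in the siControl arrays. The siControl replicates 4 to 8 lay above every array of both Keap1 siRNA groups, siControl replicates 1 to 3 lay among them, and siKeap1-1 replicate 3 lay far below. The differences were -0.48 with siKeap1-1 (SE 0.16, adjusted p = 0.0575) and -0.22 with siKeap1-2 (SE 0.16, adjusted p = 0.462), so Dbp was not called; leaving out probe sets with a mean signal of 6 or less, which adjusts over fewer tests, brought Dbp (adjusted p = 0.0363) and Nr1d2 (adjusted p = 0.0423) under the threshold with siKeap1-1. Its second probe set, 1418174_at, gave -0.48 and -0.20. Against siControl replicates 1 to 3 alone, the siKeap1-2 difference was 0.07.

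Between siKeap1-1 and siKeap1-2 none of the 23 clock probe sets was called with limma, where 0.162% of all probe sets were, and 2 of the 23 (Clock 1435775_at and Per3 1442243_at) had an unadjusted p under 0.05, 8.7% against 9.3% of all probe sets. For Per2 and Per3 the difference between the siRNAs was 0.09 (95% interval -0.28 to 0.46) and -0.07 (-0.31 to 0.17) on the brightest probe set. The siRNA comparisons with siControl use the same 8 siControl arrays, so a low or high control array moves both alike.

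The 18S signal moved with the groups, and the clock calls depended on how it was handled. With 18S as a covariate limma called no clock probe set with either siRNA, while 2.94% and 0.673% of all probe sets were called. In that fit 7 and 3 of the 23 had an unadjusted p under 0.05, but the share of all probe sets with such a p was not taken. Without the covariate 10 and 4 of the 23 had one, beside 23% and 20.5% of all probe sets. With the covariate Per2 read -0.57 (SE 0.25) with siKeap1-1 and -0.67 (SE 0.25) with siKeap1-2, beside -0.72 and -0.81 (SE 0.18 each) without it. The leading probe set of Per3 read -0.53 (SE 0.16) and -0.46 (SE 0.16), beside -0.51 and -0.44 (SE 0.12 each). Cry2 read -0.39 (SE 0.15) and -0.30 (SE 0.14), beside -0.37 and -0.28 (SE 0.10 each). The part of 18S in these differences was not tested. On Per3 1442243_at siControl replicates 1 to 3 read between 7.78 and 8.15 and replicates 4 to 8 between 6.79 and 7.23. The siKeap1-1 classes overlapped there, at 6.36 to 7.35 and 6.28 to 7.74. With the numbers 1 to 3 or 4 to 8 as a covariate, Per2, Per3 and Cry2 kept their calls with siKeap1-1 (adjusted p = 0.00925, 0.00532 and 0.0258) and Per2 and Per3 with siKeap1-2 (adjusted p = 0.00601 and 0.0209). Each class holds the same number of arrays in every group, so this covariate cannot move the group differences and affects only their errors. It also cannot follow the 18S order, which was turned in siControl, so the kept calls do not test the 18S classes. Against siControl replicates 1 to 3 alone Per2 read -0.90 and -0.98, and against replicates 4 to 8 alone -0.61 and -0.70.

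**Figure D3:**
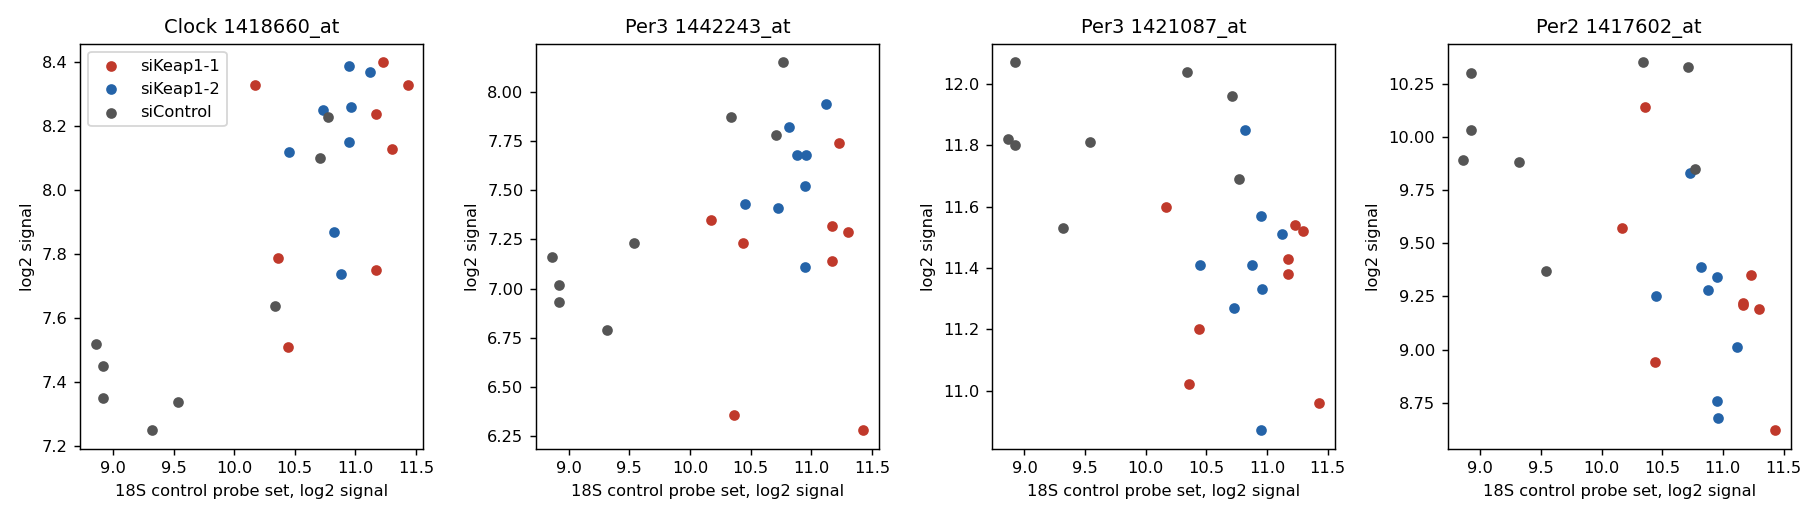
Log2 signal of Clock 1418660_at, Per3 1442243_at, Per3 1421087_at and Per2 1417602_at against that of the 18S control probe set, 1 point per array (siKeap1-1 red, siKeap1-2 blue, siControl grey). The 5 siControl arrays with 18S signals between 8.86 and 9.54 read low on the Clock probe set, while on the brightest Per3 and Per2 probe sets siControl arrays of both classes lie above most Keap1 siRNA arrays.

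Some genes that respond to meals were called in the same comparisons, and their part in the clock differences was not tested. Of 9 measured genes known to be higher after feeding, 2 were called lower with each siRNA, and 8 had an unadjusted p under 0.05 with siKeap1-1 and 5 with siKeap1-2, where 24.5% and 21.9% of all genes had. Elovl6, a fatty acid elongase, differed by -1.13 (adjusted p = 0.0165) and -1.01 (adjusted p = 0.0418), and Pnpla3, a lipid droplet enzyme, by -1.87 (adjusted p = 0.0432) and -1.93 (adjusted p = 0.0485). Of the 24 fits that left out 1 array, Pnpla3 lost its calls in 12 and 19 and Elovl6 its siKeap1-2 call in 10, and with 18S as a covariate neither gene was called. Fasn, fatty acid synthase, ran from 9.94 through 11.11 to 12.21 with siKeap1-1 and from 9.67 through 11.22 to 12.62 with siKeap1-2, against 11.05 through 12.87 to 13.33 with siControl, and was not called. Of 9 measured genes higher in fasting only the coactivator gene Ppargc1a was called, lower with siKeap1-1 at a log2 difference of -0.56 (adjusted p = 0.00899). That comparison called 9.49% of all genes. An unadjusted limma p under 0.05 was found for 3 of the 9 with siKeap1-1 and 2 with siKeap1-2, all lower, beside 24.5% and 21.9% of all genes. The median log2 difference over the 9 was -0.13 and -0.08. Pck1, which encodes the gluconeogenic enzyme PEPCK, read -0.26 and -0.16, and Igfbp1, an insulin-repressed binding protein, -0.09 and -0.08, none of them called.

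Among 41 measured genes of 45 listed as further clock parts, regulators and outputs, siKeap1-1 raised 2 and lowered 4, beside the 9.49% of all genes called. With siKeap1-1 an unadjusted limma p under 0.05 was found for 11 of the 41, and for 24.5% of all genes. Those lowered included Hlf (-0.36, adjusted p = 0.00968) and Tef (-0.27, adjusted p = 0.0184), the relatives of Dbp that bind the same D-box, with Bhlhe40 (-0.64, adjusted p = 0.0383), an E-box repressor also called Dec1, and Upp2 (-0.39, adjusted p = 0.0428), a uridine phosphorylase with a strong liver rhythm. Those raised were Prkaa2 (0.50, adjusted p = 0.000723), a catalytic subunit of AMPK, the kinase that marks cryptochromes for breakdown, and Csnk2a1 (0.34, adjusted p = 0.0261), a subunit of casein kinase 2. Of the 24 fits that left out 1 array, Bhlhe40 lost its call in 10, Upp2 in 11 and Csnk2a1 in 5, and Hlf, Tef and Prkaa2 in 0. With 18S as a covariate Bhlhe40 read -0.36 and Csnk2a1 0.12. With siKeap1-2 limma called none of the 41, where 6.6% of all genes were called and 7 of the 41 had an unadjusted p under 0.05, as had 21.9% of all genes; Hlf read -0.27 (adjusted p = 0.0711), Tef -0.18 and Prkaa2 0.25. Hlf covered 8.93 to 9.38 with siKeap1-1 and 9.02 to 9.47 with siKeap1-2, against 9.32 to 9.92 with siControl. Prkaa2 covered 11.20 to 11.56 with siKeap1-1, above all siControl arrays, and 10.86 to 11.40 with siKeap1-2, against 10.51 to 11.11 with siControl. With siKeap1-1, 0.844% of all probe sets lay wholly above siControl. Arntl, the partner of CLOCK, averaged 6.17 ± 0.33 with siKeap1-1 and 6.12 ± 0.58 with siKeap1-2, against 5.95 ± 0.34 with siControl (SD, n = 8 each), and was not called.

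Within a group, some clock genes varied more between mice than most genes. The SD around the group means was 0.49 for Nr1d1, 0.39 for Per2, 0.38 for Cry1, 0.34 for Per1 and 0.33 for Dbp, beside a median of 0.18 over 11481 genes with a mean signal over 6. Per3 at 0.24, Cry2 at 0.21, Clock at 0.20 and Npas2 at 0.19 lay near that median. Nr1d2, at 0.09, varied less than most genes. Probe sets of a gene followed the brightest unequally. The r of their deviations was 0.97 for the Dbp pair, 0.74 for Clock 1435775_at and 0.47 for Clock 1418660_at. It was 0.56 and 0.60 for Per3 1441445_at and 1442243_at and 0.51 and 0.32 for the dim Per2 probe sets. Npas2 1421037_at, with a mean signal of 6.30 beside 6.38 on the brightest, reached only 0.23. The remaining dim probe sets of Clock, Per3 and Nr1d2 lay between -0.02 and 0.26.

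Of the 45 pairs of clock genes, 3 varied together within groups beyond the threshold (permutation within groups, two-sided, 100000 resamples, adjusted over the 45 pairs). By the study's methods each group mixed fed and fasted mice, which the labels do not tell apart. The part of feeding state or sampling hour in these relations, or in the spread within groups, was not tested. Nr1d1 and Dbp, whose transcripts peak within the same part of the day in liver, rose and fell together, with r = 0.76 (permutation p = 9e-05, adjusted 0.0036; rho = 0.67, permutation p = 0.00054, adjusted 0.0121). Cry1, which peaks later and whose transcription the REV-ERB proteins repress, ran against both. With Nr1d1 its r was -0.68 (permutation p = 0.00052, adjusted 0.0078; rho = -0.68, permutation p = 0.00083, adjusted 0.0124), and with Dbp -0.65 (permutation p = 0.00016, adjusted 0.0036; rho = -0.67, permutation p = 0.00046, adjusted 0.0121).

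**Figure D4:**
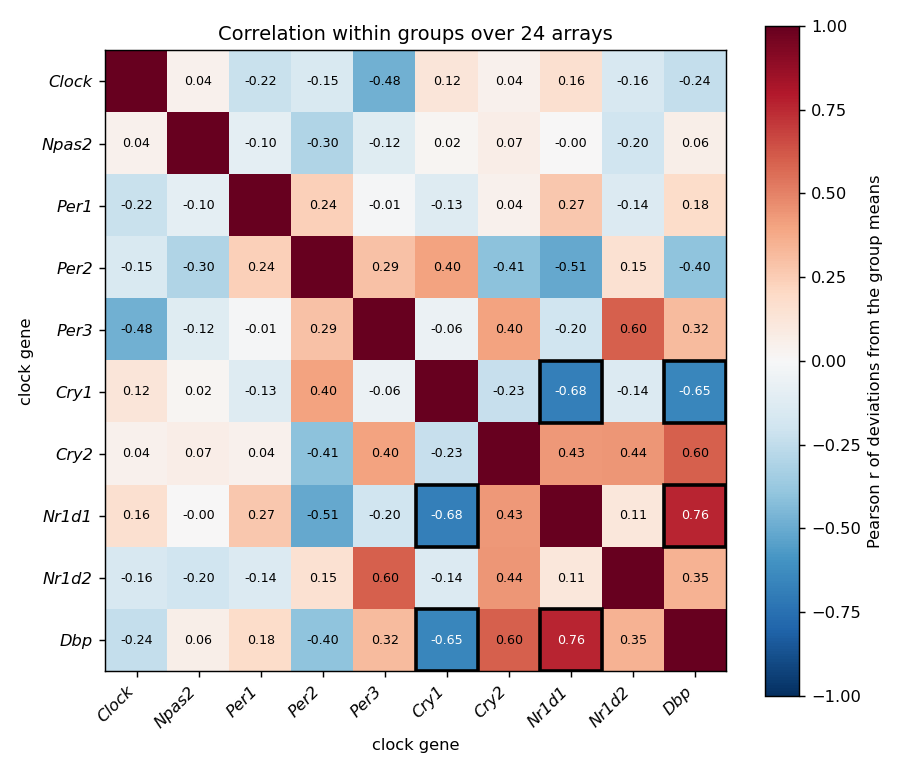
Pearson r between clock genes over 24 arrays, computed on the deviations of each array's brightest probe set signal from its group mean; black frames mark the 3 pairs with an adjusted permutation p under 0.05. The frames hold Nr1d1 with Dbp at 0.76 and Cry1 with Nr1d1 and with Dbp at -0.68 and -0.65.

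These 3 relations kept their sign without the 2 most extreme arrays and within each group. Without the 2 arrays farthest from the median of the first gene, r was 0.60 for Nr1d1 and Dbp, -0.56 for Cry1 and Nr1d1 and -0.58 for Cry1 and Dbp. Within siKeap1-1, siKeap1-2 and siControl, r was 0.96, 0.51 and 0.79 for Nr1d1 and Dbp, -0.67, -0.55 and -0.79 for Cry1 and Nr1d1 and -0.62, -0.88 and -0.68 for Cry1 and Dbp. As the replicate numbers also separate some levels (Dbp read 12.95 to 13.44 in siControl replicates 1 to 3 and 13.54 to 13.74 in replicates 4 to 8), r was recomputed by number. For Nr1d1 and Dbp it was 0.70 over the 9 arrays numbered 1 to 3 and 0.77 over the 15 numbered 4 to 8, for Cry1 and Nr1d1 -0.82 and -0.69, and for Cry1 and Dbp -0.78 and -0.61. Per2 and Per3, both lower with each Keap1 siRNA, showed no relation past the threshold within groups (r = 0.29, permutation p = 0.205, adjusted 0.513; rho = 0.41, permutation p = 0.0559, adjusted 0.372).

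**Figure D5:**
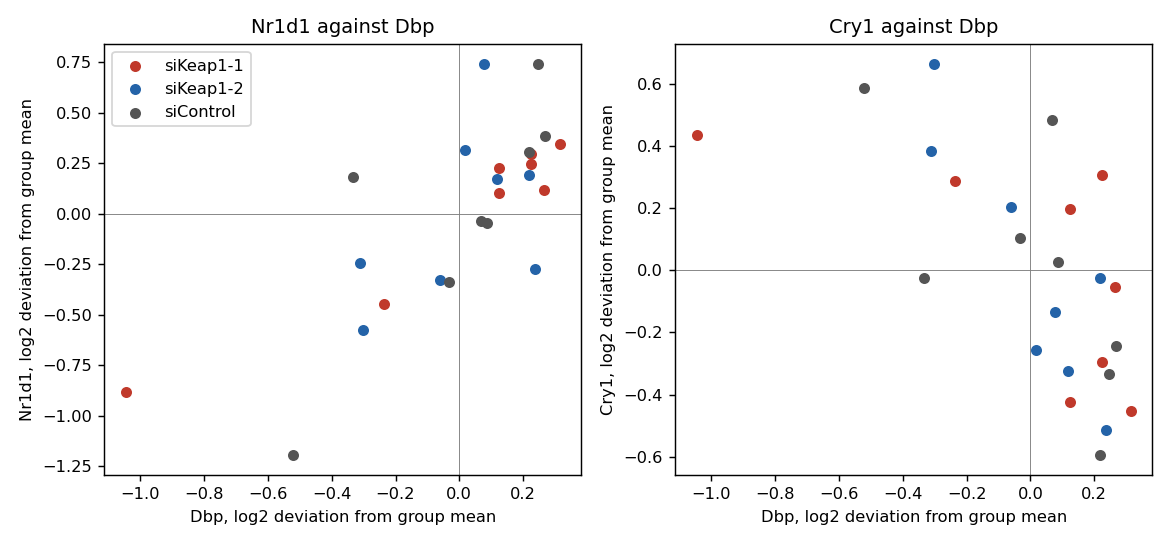
Deviation of Nr1d1 (left) and Cry1 (right) from the group mean against that of Dbp, in log2 units, 1 point per array (siKeap1-1 red, siKeap1-2 blue, siControl grey). Nr1d1 runs up with Dbp (r = 0.76) and Cry1 runs down (r = -0.65), in all 3 groups, and the array at the far left is siKeap1-1 replicate 3.

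Among 11471 other genes with a mean signal over 6, the deviations of Sphk2 were most like those of Dbp (r = 0.96 over 24 arrays). Sphk2, a sphingosine kinase gene, overlaps Dbp on chromosome 7. Prkca followed at 0.83, Cisd1 and Vdac2 at 0.80 and Ciart, a repressor of the CLOCK and BMAL1 pair, at 0.78. For Npas2, whose signal lies near the low end of the array's range, the nearest were Atp2a1 at 0.83, Fut7 at 0.79, Msi1 at 0.74 and Shisal1 and Sema6a at 0.73. These values describe 24 arrays that share 1 normalization, and the genes were picked for these high values.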

How the data were processed

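The deposited table holds log2 signals that the authors made from the array scans with RMA (version not given in the sources used here); scanner files were not used here. The fit omitted 64 control probe sets and removed no dim ones. All 24 arrays entered 1 limma fit of the 3 groups (limma 3.58.1, R 4.3.3), p-values were adjusted by Benjamini-Hochberg over 45037 probe sets, and the number of arrays limits the precision. The 2-way ANOVA of the study was not fitted, as the labels name 1 factor. The brightest probe set by mean signal leads for each gene. Symbols come from the platform annotation, updated by Entrez ID; 34945 probe sets name 1 gene, 932 several and 9160 none. Named are the 10 members, Keap1, Nqo1, Arntl, called genes of the clock list, Pck1, Igfbp1 and Fasn, and the 5 genes most like Dbp and Npas2; Elovl6, Pnpla3, Ppargc1a and the markers of other liver cells were named after their values were seen. Members and lists were chosen with earlier results of these data known. Deviations of arrays with the same replicate number correlated between -0.171 and 0.28, so the numbers were not taken as pairs. The fit was tested on simulated data. Alternatives covered normalization, dim probe sets, moderation, weights, covariates, thresholds and each array left out; those on the 18S classes were added after seeing the data.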

Additional observations from a re-analysis of the deposited data

Results flagged for a closer look

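In each group the highest and lowest array of every clock gene was compared with Dixon's 95% critical value, which chance passes in about 5% of groups. Per1 read 7.01 in siKeap1-1 replicate 1, against 7.81 to 8.43 in the other siKeap1-1 arrays. Dbp read 11.95 in siKeap1-1 replicate 3, against 12.76 to 13.31 in the other siKeap1-1 arrays; without this array the Dbp difference from siControl was -0.33.

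The 18S rRNA control, which enters the clock gene comparisons only as a covariate in an alternative fit, was 1.23 higher with siKeap1-1 and 1.18 higher with siKeap1-2 than with siControl on the log2 scale. The lowest signals were those of siControl replicates 4 to 8.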

How the results depend on the processing

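The main counts were 5 clock probe sets, 3 clock genes and 6 listed clock-related genes called with siKeap1-1, and 3, 2 and 0 with siKeap1-2. They moved by more than 1.5 times as follows, and the cause was not tested except where the setting itself is a looser or stricter threshold. Over probe sets with a mean signal over 6 only, siKeap1-1 gave 8 probe sets and 5 genes, and siKeap1-2 gave 2 listed genes. Of all probe sets tested there, 19.9% and 14.4% were called, beside 8.99% and 6.1% in the main fit. An adjusted p under 0.1 gave the same 3 numbers, with 13.5% and 10.1% of all probe sets called. A fold over 2 with an unadjusted limma p under 0.01, thresholds that the study applied with a 2-way ANOVA not fitted here, gave 0 probe sets and 0 genes with either siRNA, and 0 listed genes with siKeap1-1. Of all probe sets 0.617% and 0.557% passed these thresholds. With 18S as a covariate there were 0 probe sets and 0 genes with either siRNA and 1 listed gene with siKeap1-1. That fit called 2.94% and 0.673% of all probe sets. Against siControl replicates 1 to 3 alone there were 1 probe set, 1 gene and 1 listed gene with siKeap1-1, and 0 probe sets and 0 genes with siKeap1-2. Fewer arrays enter this fit, which called 3.42% and 0.795% of all probe sets. Against replicates 4 to 8 alone siKeap1-2 gave 1 gene and 5 listed genes, where 9.55% of all probe sets were called. The mean over all probe sets of a gene gave 1 gene with siKeap1-1 and 0 with siKeap1-2. The listed genes with siKeap1-2 were 3 with the first residual component as a covariate and 1 each with quantile normalization, array weights, trended moderation and the numbers 1 to 3 or 4 to 8 as a covariate. These settings called 8.68%, 5.97%, 7.7%, 6.19% and 6.43% of all probe sets with siKeap1-2, in that order.

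Signs turned only for differences that were not called. Nr1d1 read 0.04 (array weights), 0.11 (18S covariate) and 0.38 (siControl replicates 1 to 3) with siKeap1-1 and -0.19 (siControl replicates 4 to 8) with siKeap1-2. Csnk2a1 read -0.05 (18S covariate) and -0.10 (siControl replicates 1 to 3) with siKeap1-2, Dbp 0.07 (siControl replicates 1 to 3) with siKeap1-2, and Cry1 0.05 (siControl replicates 4 to 8) with siKeap1-1. Igfbp1 read 0.09 and 0.10 against siControl replicates 4 to 8. Between the siRNAs Per1 read 0.01 (array weights). With the mean over probe sets, Nr1d2 read 0.02 with siKeap1-2 and Per2 -0.07 between the siRNAs.

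Leaving out each array in turn gave 3 to 8 probe sets, 2 to 4 genes and 3 to 7 listed genes with siKeap1-1, and 1 to 3, 1 to 2 and 0 to 2 with siKeap1-2. The extremes came without siControl replicates 5 and 1 for siKeap1-1 probe sets and without siControl replicate 6 for siKeap1-2, where Per3 had an adjusted p of 0.052. Those fits called 8.19% and 8.76% of all probe sets with siKeap1-1 and 4.28% with siKeap1-2. Over the same fits the lowest and highest Nr1d1 values were -0.24 and 0.06 with siKeap1-1, against -0.09 and 0.18 with siKeap1-2. Igfbp1 had extremes of -0.27 and 0.05 with siKeap1-1, against -0.26 and 0.04 with siKeap1-2. Cry1 ran from -0.17 to 0.00 with siKeap1-1, and between the siRNAs Npas2 ran from -0.06 to 0.02, Per1 from -0.09 to 0.12 and Per2 from -0.03 to 0.18.

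With the replicate number as a block, 4 probe sets, 3 genes and 5 listed genes were called with siKeap1-1 and 3, 2 and 0 with siKeap1-2, beside 9.03% and 5.79% of all probe sets. Upp2 (-0.39) and Per3 1441445_at (-0.64) lost their calls and Fasn (-1.41, adjusted p = 0.0282, siKeap1-1) gained one. The numbers pair no samples in the design: r over same-numbered arrays exceeded 0.1 in 2, 5 and 2 of 8 pairs. Probe sets with a mean signal below 6, 7 of the 23, lie near the floor of the array and limit what Clock, Per2, Per3 and Nr1d2 can show there.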
